A study of Mus musculus with 6 samples.

Results

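The expression of 87 protein-coding genes of heterogeneous nuclear ribonucleoproteins (hnRNPs) and RNA-binding splicing regulators, out of 55487 genes counted, was compared in αTC1 cells. They were chosen by symbol: every protein-coding gene named Hnrnp, Rbfox, Celf, Mbnl, Elavl or Khdrbs, the Ptbp, Nova and Tra2 genes, Srrm3 and Srrm4, and every Rbm gene with a number. No measured value entered this rule, but the choice was made with earlier results of these data known. The αTC1 line is 1 established mouse glucagonoma line that makes glucagon. Its cells had received the SMNDC1 inhibitor G786-1089 or DMSO, its solvent, and RNA was sequenced from 3 libraries of each treatment. The names of all libraries begin with WT, read here as wild type. SMNDC1 is a splicing factor that binds methylated arginines through its Tudor domain. The labels give neither the dose and the duration of the treatment nor whether the 3 libraries of a treatment came from separate cultures, so that p-values measure the spread between libraries, which may be technical. For its cell culture work in general, the study states that treatments of a replicate were handled as 1 batch, but the letters of the libraries (A, B and C) could not be tied to replicates.

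hnRNPs coat nascent pre-mRNA, and many of them keep splice sites from being used, often against the SR proteins that promote inclusion of exons. Other RNA-binding proteins add tissue-specific choices: RBFOX, NOVA, neuronal ELAVL, CELF, SRRM3 and SRRM4 proteins set the splicing programmes of neurons, and several of them are shared by pancreatic endocrine cells. PTBP1 represses many neuronal exons, and its paralogue PTBP2 takes its place as neurons form. RBM is a name given to many unrelated proteins with an RNA recognition motif, among them spliceosome components and proteins of the exon junction complex.

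Libraries held between 59070705 and 94747943 counts, and each G786-1089 library was deeper than each DMSO library. The glucagon gene Gcg, which defines the line, was at 2401 to 3024 FPKM with G786-1089 and at 17086 to 19365 FPKM with DMSO (log2 fold change -2.76, edgeR adjusted p = 0.000102). FPKM are the deposited counts per kilobase of exon, scaled between libraries. Of the α cell markers read, 8 were expressed, and the summed level of the markers was 3515 to 4085 FPKM with G786-1089 and 19795 to 22014 FPKM with DMSO. All 3 δ and PP cell markers were at 0. The part of this fall of α cell markers in the changes described here was not tested. In RNA of whole cultures, fewer cells of a kind and less RNA per cell cannot be told apart. Smndc1, whose protein is the target of the compound, was at 1.78, 0.528 and 2.59 FPKM with G786-1089 and at 1.2, 0.736 and 0.812 FPKM with DMSO, and did not pass the test (log2 fold change 0.84, SE 0.67, edgeR adjusted p = 0.481).

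A gene is called expressed here with at least 1 FPKM in all 3 libraries of a treatment, and not detected with 3 counts or fewer in every library. By these limits 59 of the 87 genes were expressed, 20 were low and 8 were not detected. Counts of 79 genes sufficed for a test. With G786-1089, 17 of these 79 changed (21.5%), 6 to a higher and 11 to a lower level, in edgeR's quasi-likelihood test at an adjusted p under 0.05. Among all 15082 tested genes 14.8% changed, 6.98% to a higher and 7.8% to a lower level. Among the 11424 tested protein-coding genes, the class to which all 87 belong, 17.4% changed. The libraries of the treatments did not overlap in 33 of the 79 genes, or 41.8%, against 36.7% of all tested genes. The median log2 fold change was -0.09 over the 79 genes, 0.04 over all tested genes and 0.095 over tested protein-coding genes. By the combined threshold of the study (edgeR adjusted p up to 0.1, log2 fold change of 1 or more in size), 12 of the 79 passed, 6 in each direction, against 10.4% of all tested genes. Scaling by library size alone moved the median of all genes to 0.25, and 19 of the 79 were then called, 11 higher and 8 lower. With the letter as a replicate block, 11 of the 79 were called, 4 higher and 7 lower, against 8.17% of all tested genes.

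**Figure D1:**
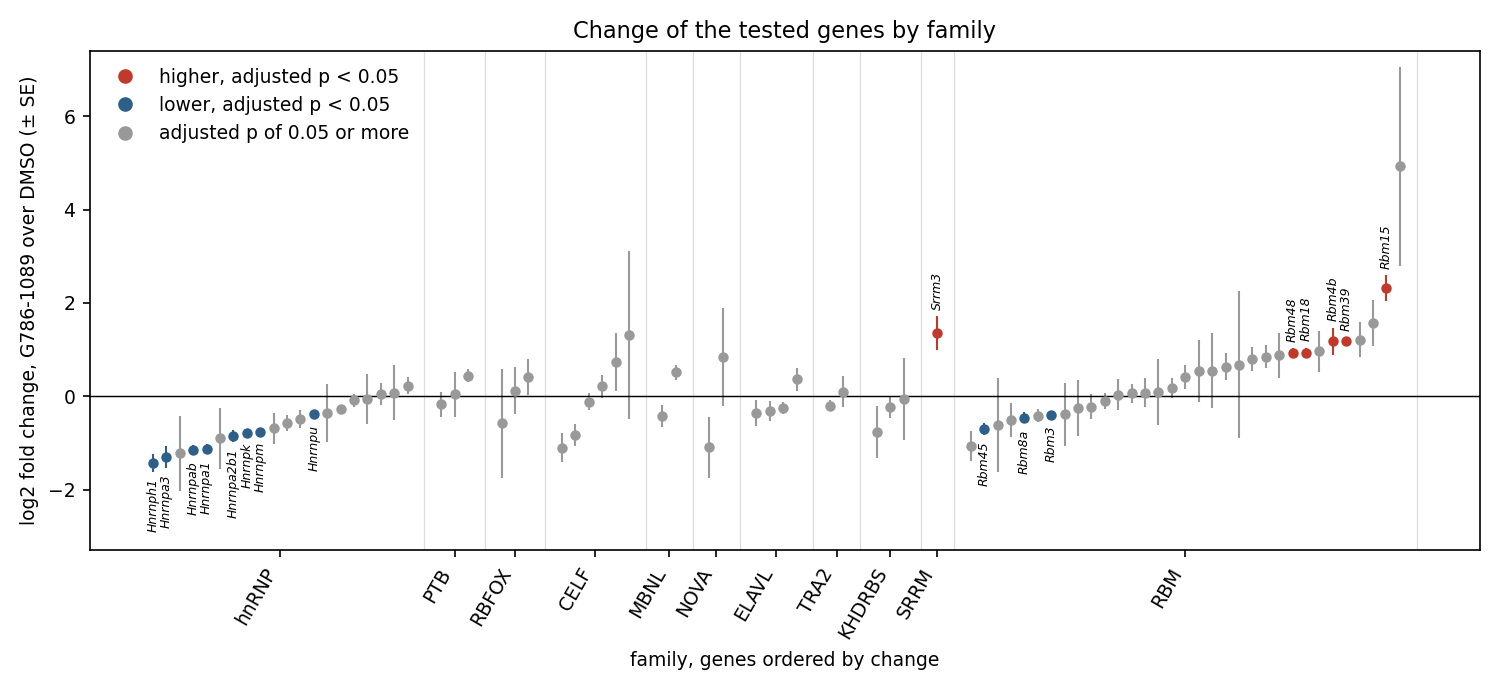
Log2 fold change of G786-1089 over DMSO with its standard error for the 79 tested genes, grouped by family along the horizontal axis and ordered by change. Colour marks edgeR calls: 8 of 20 hnRNP genes were lower and none higher, the RBM genes held 5 higher and 3 lower calls, and Srrm3 was the remaining call. The highest point, Rbm41 at 4.93, rests on 1 library.

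The hnRNP genes were the family with the most calls in 1 direction. All 20 could be tested. Of these, 8 (40%) fell with G786-1089 and 0 rose. The log2 fold change was below 0 in 17 of 20, with a median of -0.63. Among all 15082 tested genes 7.8% fell and 6.98% rose, 7263 lay below 0, and the median was 0.04. Over the alternatives, glmTreat included, 5 to 11 hnRNP genes fell and 0 rose. Summed over the 20 genes, the level was 516, 525 and 496 FPKM with G786-1089 and 850, 849 and 870 FPKM with DMSO. For comparison, 11 genes encode SR proteins (Srsf), whose function is often set against that of hnRNPs. Of the 10 tested SR genes 2 rose and 2 fell, with a median log2 fold change of 0.12. The called share was 40% in either family. The difference between the families was not tested.

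Promoter sequences of the 3 hnRNP genes with the smallest p-values, and of Rbm39, the gene of the whole set with the smallest, are shown because these genes stand for the changes in either direction. Each is the 250 bases before a start of transcription in RefSeq on GRCm38.p6, read along the strand of the gene; of the 2 starts of Rbm39 the upstream one was taken. Capitals mark the CCAAT box (CCAAT, or ATTGG on the other strand) and the core of the hypoxia response element (ACGTG, or CACGT on the other strand).
Hnrnpk, chr13:58402118-58402367, minus strand: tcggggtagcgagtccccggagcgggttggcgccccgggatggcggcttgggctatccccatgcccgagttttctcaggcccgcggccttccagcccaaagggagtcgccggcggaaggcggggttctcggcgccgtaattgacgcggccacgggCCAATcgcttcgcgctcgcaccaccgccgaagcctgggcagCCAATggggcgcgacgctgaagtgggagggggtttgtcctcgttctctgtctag
Hnrnpa1, chr15:103240147-103240396, plus strand: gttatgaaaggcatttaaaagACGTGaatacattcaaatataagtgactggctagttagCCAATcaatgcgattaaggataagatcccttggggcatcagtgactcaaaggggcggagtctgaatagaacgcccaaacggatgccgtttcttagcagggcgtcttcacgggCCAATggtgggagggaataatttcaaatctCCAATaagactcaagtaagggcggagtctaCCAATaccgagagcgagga
Hnrnpab, chr11:51606882-51607131, minus strand: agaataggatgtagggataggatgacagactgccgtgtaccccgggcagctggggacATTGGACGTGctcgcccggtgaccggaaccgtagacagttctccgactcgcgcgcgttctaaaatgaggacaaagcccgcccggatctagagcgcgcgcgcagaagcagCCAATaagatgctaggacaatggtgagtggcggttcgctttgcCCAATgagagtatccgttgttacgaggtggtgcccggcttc
Rbm39, chr2:156180239-156180488, minus strand: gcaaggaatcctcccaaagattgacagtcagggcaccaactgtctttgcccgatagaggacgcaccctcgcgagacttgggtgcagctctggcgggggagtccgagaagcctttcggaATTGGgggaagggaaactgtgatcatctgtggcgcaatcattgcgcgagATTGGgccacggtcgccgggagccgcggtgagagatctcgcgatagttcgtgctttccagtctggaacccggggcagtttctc

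Windows of the 8 hnRNP genes that fell held a CCAAT box in 6 genes and those of the other 10 hnRNP genes with a window in 7. Of 16802 protein-coding genes, 39.4% held the same letters in a window of this length. ACGTG was found in 4 of the 8 hnRNP genes that fell, in 3 of the other 10, and in 20.3% of protein-coding genes. In Hnrnpab a CCAAT box and ACGTG follow each other without a gap. CpG dinucleotides were counted in the window of each gene that held the most. Their number had a median of 27 in the hnRNP genes that fell, 27 in the other hnRNP genes and 11 in protein-coding genes. The CCAAT box and the CpG count were thus much alike in hnRNP genes with and without a call. A match of letters is a description of the window and not evidence of binding.

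The most abundant hnRNP gene was Hnrnpk, on chromosome 13 of GRCm38 from 58391142 to 58403343, whose protein binds C-rich RNA and DNA through KH domains. Its level was 89.5, 85.7 and 80.4 FPKM with G786-1089 and 150, 144 and 149 FPKM with DMSO. All G786-1089 libraries lay below all DMSO libraries, and the log2 fold change was -0.79 (SE 0.07, edgeR adjusted p = 0.000917). Of its exon bases 5.1% lie in exons of the antisense gene Rmi1, and its 2 processed pseudogenes drew 3.49% as many counts as the gene itself.

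Hnrnpa1, Hnrnpa2b1 and Hnrnpa3 encode A/B type proteins, which bind UAG-like elements and often act through exonic and intronic splicing silencers. Hnrnpab is given with them by its name only. Hnrnpa1 (chromosome 15, 103240432 to 103246692) was at 59.4, 67.4 and 59.2 FPKM with G786-1089 and at 130, 126 and 152 FPKM with DMSO. Hnrnpab (chromosome 11, 51600100 to 51606847) was at 46.3, 60.2 and 55.7 FPKM with G786-1089 and at 121, 120 and 120 FPKM with DMSO. Both were thus below the DMSO range in every treated library, by a log2 fold change of -1.13 (SE 0.11) for Hnrnpa1 and -1.15 (SE 0.11) for Hnrnpab, each with an edgeR adjusted p of 0.00122. Hnrnpa2b1 was at 63.9, 49 and 66.5 FPKM with G786-1089 and at 107, 105 and 112 FPKM with DMSO (log2 fold change -0.85, SE 0.13, edgeR adjusted p = 0.00806). Hnrnpa3 was at 9.73, 7.53 and 5.04 FPKM with G786-1089 and at 17.2, 19.7 and 18.1 FPKM with DMSO (log2 fold change -1.30, SE 0.24, edgeR adjusted p = 0.0153). Neither gene had overlapping treatments. The call of Hnrnpa3 was lost without G786-1089 library B, DMSO library B or DMSO library C, with an adjusted p of up to 0.0551. Hnrnpa0, the remaining gene of the type, ran from 0.393 to 2.62 FPKM over the 6 libraries and met the limit for expression with DMSO only, but its treatments overlapped (log2 fold change -0.90, SE 0.65, edgeR adjusted p = 0.433).

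Reads of these genes are not all assigned with equal certainty. Hnrnpa3 has 33 processed pseudogenes with at least 300 bases at 95% identity, which drew 15.8% as many counts as the gene. For Hnrnpa1 there are 9 such pseudogenes with 6.25% as many counts. In Hnrnpab, 29.1% of exon bases overlap the antisense gene Phykpl, and the unstranded libraries do not separate the genes there.

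Hnrnph1, Hnrnph2, Hnrnph3 and Hnrnpf encode proteins that bind runs of G. Hnrnph1 showed the lowest log2 fold change of all 79 tested genes, -1.43 (SE 0.19, edgeR adjusted p = 0.00459). It was at 17, 27.6 and 20.1 FPKM with G786-1089 and at 57, 62.5 and 54.6 FPKM with DMSO, and the highest treated library was below the lowest DMSO library. Its paralogue Hnrnph2 was at 10.2, 12.3 and 8.62 FPKM with G786-1089 and at 14.5, 17.3 and 14.8 FPKM with DMSO. The treatments of Hnrnph2 did not overlap either, but the gene did not pass the test (log2 fold change -0.58, SE 0.17, edgeR adjusted p = 0.0713). Hnrnpf stayed between 43.1 and 54.7 FPKM in all 6 libraries, with overlapping treatments (log2 fold change -0.09, SE 0.13, edgeR adjusted p = 0.711). For Hnrnpf, copies drew 26.5% as many counts as the gene, and 26.5% of its exon bases overlap other genes.

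Hnrnpm, whose protein binds GU-rich RNA, was at 28.1, 28.3 and 28.1 FPKM with G786-1089 and at 46, 49.4 and 49.7 FPKM with DMSO. It fell in all treated libraries by nearly the same amount (log2 fold change -0.77, SE 0.08, edgeR adjusted p = 0.00193). Marchf2 on the same strand shares 14.7% of its exon bases. Hnrnpu, which encodes the scaffold attachment factor A, was at 32.7, 38.3 and 36.9 FPKM with G786-1089 and at 46.9, 43.6 and 51.4 FPKM with DMSO. Exons of the antisense gene Cox20 cover 6.93% of its exon bases. This fall was small, -0.39 on the log2 scale (SE 0.09, edgeR adjusted p = 0.0372), and it was not called when any 1 of the 6 libraries was left out, with library size alone as the scale (adjusted p = 0.242) or with the replicate block (adjusted p = 0.0859).

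Of 13 hnRNP genes with a mean of at least 10 FPKM, 8 fell, and 10 had treatments that did not overlap, all lower with G786-1089. Among all 4673 tested genes at this level, 32.2% were called, 20.4% fell, and 56.4% did not overlap. Besides Hnrnph2, the uncalled one of these 10 was Hnrnpc, which encodes a protein that binds U tracts and shields them from splice factors: 26.8, 27.1 and 29.2 FPKM with G786-1089 against 35.6, 33.5 and 32.1 FPKM with DMSO (log2 fold change -0.28, SE 0.10, edgeR adjusted p = 0.104). The abundant genes with a log2 fold change above 0 were Hnrnpdl at 0.23 (SE 0.18) and Hnrnpll at 0.05 (SE 0.23), both with overlapping treatments. In the 7 hnRNP genes below 10 FPKM no call was made. Among them Hnrnpul1, at 0.182 to 1.4 FPKM, had a log2 fold change of -1.22 with an SE of 0.80 (edgeR adjusted p = 0.384), so that a change of this size could not be told from 0 at its level.

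**Figure D2:**
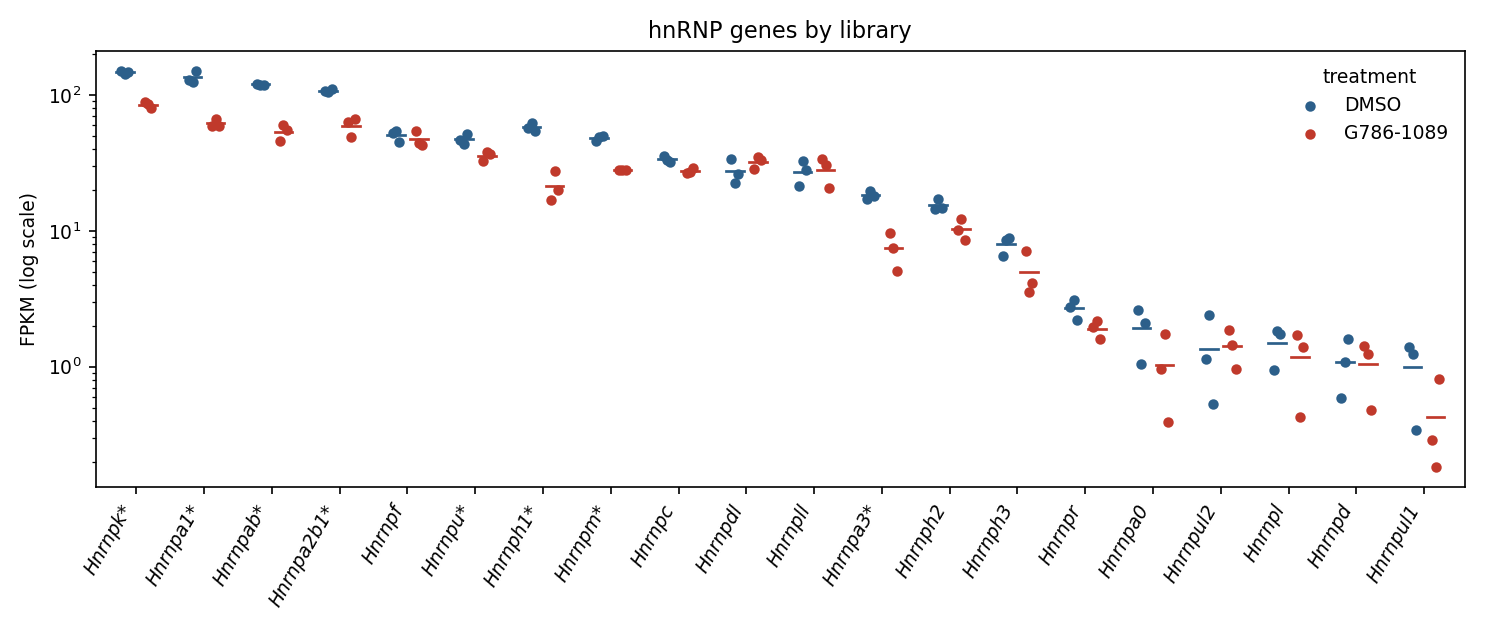
FPKM on a log scale of the 20 hnRNP genes in each of the 6 libraries, ordered by mean level; points are libraries, short lines the mean of 3 libraries, and an asterisk marks genes called by edgeR. The 8 called genes have every G786-1089 point (red) below every DMSO point (blue), as for Hnrnpk with 80.4 to 89.5 against 144 to 150 FPKM.

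Among the 39 RBM genes, 24 were expressed, 9 were low and 6 were not detected. Of 33 tested genes, 5 rose and 3 fell, and the median log2 fold change was 0.41. This median rests in part on G786-1089 library C, without which it was 0.07, whereas the calls ran from 4 to 10 higher and from 0 to 5 lower over the alternatives, glmTreat included. These 5 and 3 calls stand against 6.98% higher and 7.8% lower among all tested genes. Treatments did not overlap in 15 of the 33, of which 10 were higher and 5 lower with G786-1089, against 36.7% of all tested genes. Summed over the 39 genes, the level was 759, 757 and 734 FPKM with G786-1089 and 533, 564 and 565 FPKM with DMSO. Rbm39 alone had a mean of 290 FPKM of this sum with G786-1089 and 128 FPKM with DMSO.

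Rbm39 (chromosome 2, 156147239 to 156180238) encodes a splicing cofactor related to the large U2AF subunit, known as the protein that aryl sulfonamide drugs mark for degradation. It was the most abundant of the 87 genes, at 306, 279 and 284 FPKM with G786-1089 and 125, 125 and 134 FPKM with DMSO. All treated libraries lay above all DMSO libraries. The log2 fold change was 1.19 (SE 0.07, edgeR adjusted p = 0.000236), the smallest p-value of the set.

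The largest called increase was that of Rbm15, an adaptor of the complex that methylates adenosines in mRNA. Its level was 5.58, 5.59 and 7.5 FPKM with G786-1089 and 1.2, 0.958 and 1.6 FPKM with DMSO, with no overlap (log2 fold change 2.32, SE 0.28, edgeR adjusted p = 0.00345). Rbm15b, its paralogue, was low at 0.026 to 0.541 FPKM and had overlapping treatments.

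Rbm18, a little characterised member, was at 68.7, 79.7 and 69.6 FPKM with G786-1089 and at 42.3, 36.4 and 36.3 FPKM with DMSO (log2 fold change 0.93, SE 0.11, edgeR adjusted p = 0.00297). Rbm48, a factor of minor intron splicing, was at 38.1, 42.3 and 37.9 FPKM with G786-1089 and at 21.8, 19.3 and 21.7 FPKM with DMSO (log2 fold change 0.92, SE 0.11, edgeR adjusted p = 0.00369). Both genes were higher in all treated libraries. Exons of other genes cover 18.5% of the exon bases of Rbm48 and 6.6% of those of Rbm18. Rbm4b, a splicing regulator, was at 16.2, 10.2 and 15.3 FPKM with G786-1089 and at 4.53, 6.92 and 7.1 FPKM with DMSO (log2 fold change 1.18, SE 0.29, edgeR adjusted p = 0.0379). Its call was lost in 5 of the 6 fits without 1 library and with the replicate block (adjusted p = 0.104), and 30.8% of its exon bases overlap an antisense gene. Its paralogue Rbm4 shares a near-identical stretch with it, and 60.5% of the exon bases of Rbm4 belong also to the readthrough gene Gm21992, where reads could not be assigned to 1 gene. Rbm4 was listed at 0.277 to 1.03 FPKM.

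The RBM genes that fell were Rbm3, Rbm45 and Rbm8a. Rbm3, which encodes a cold-inducible protein, was at 78.3, 77.7 and 69.2 FPKM with G786-1089 and at 97.7, 97.6 and 103 FPKM with DMSO (log2 fold change -0.40, SE 0.08, edgeR adjusted p = 0.0177). Rbm45 was at 24.6, 25 and 22.7 FPKM with G786-1089 and at 35.7, 43.4 and 38.4 FPKM with DMSO (log2 fold change -0.70, SE 0.13, edgeR adjusted p = 0.0162). Rbm8a, a core part of the exon junction complex, was at 23.4, 27.4 and 23.9 FPKM with G786-1089 and at 34.6, 36.4 and 32.2 FPKM with DMSO (log2 fold change -0.46, SE 0.12, edgeR adjusted p = 0.0417). None of the 3 genes had overlapping treatments. Near-identical copies drew 12.4% as many counts as Rbm3 and 0.754% as many as Rbm8a. Each call depended on single libraries: that of Rbm3 was lost in 3, that of Rbm45 in 3 and that of Rbm8a in all 6 of the fits without 1 library. Library size alone as the scale also ended the calls of Rbm3 (adjusted p = 0.114) and Rbm8a (adjusted p = 0.196). The replicate block ended all 3, with an adjusted p of 0.0695 for Rbm3, 0.0564 for Rbm45 and 0.0873 for Rbm8a.

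Rbm5, Rbm6 and Rbm10 encode related regulators of exon skipping. None was called, and their log2 fold changes were 0.18 (SE 0.21) for Rbm5, 0.80 (SE 0.25) for Rbm6 and -0.42 (SE 0.14) for Rbm10. Among genes past an absolute log2 fold change of 1 without a call were Rbm43 at 1.21 (SE 0.37, edgeR adjusted p = 0.0812), Rbm33 at 1.57 (SE 0.50, edgeR adjusted p = 0.086) and Rbm14, of paraspeckles, at -1.07 (SE 0.32, edgeR adjusted p = 0.0715). The treatments did not overlap in any of these 3, and all 3 passed the study's combined threshold on p and fold. Of the exon bases of Rbm14, 21% overlap the antisense gene Gm21844 and the same-strand gene Gm21992. The highest log2 fold change of the set, 4.93 for Rbm41 (SE 2.13, edgeR adjusted p = 0.191), came from G786-1089 library C at 1.75 FPKM, while the other 5 libraries were at 0 to 0.075 FPKM.

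The RBM genes not detected were Rbm24, Rbm31y, Rbm42, Rbm44, Rbm46 and Rbm47. Rbm24 acts in muscle, Rbm46 in germ cells and Rbm47 in epithelia. Each but Rbm42 had 0 counts in all 6 libraries. A count of 0 allows up to 3 fragments per library, or more counts if mates are counted separately. Rbm42 was listed at 0 but for 1 count in G786-1089 library B, and 75.4% of its exon bases lie in exons of the readthrough gene Gm21982 as well, and reads in such shared exons could not be assigned to 1 gene. The part of this overlap in its level was not tested.

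**Figure D3:**
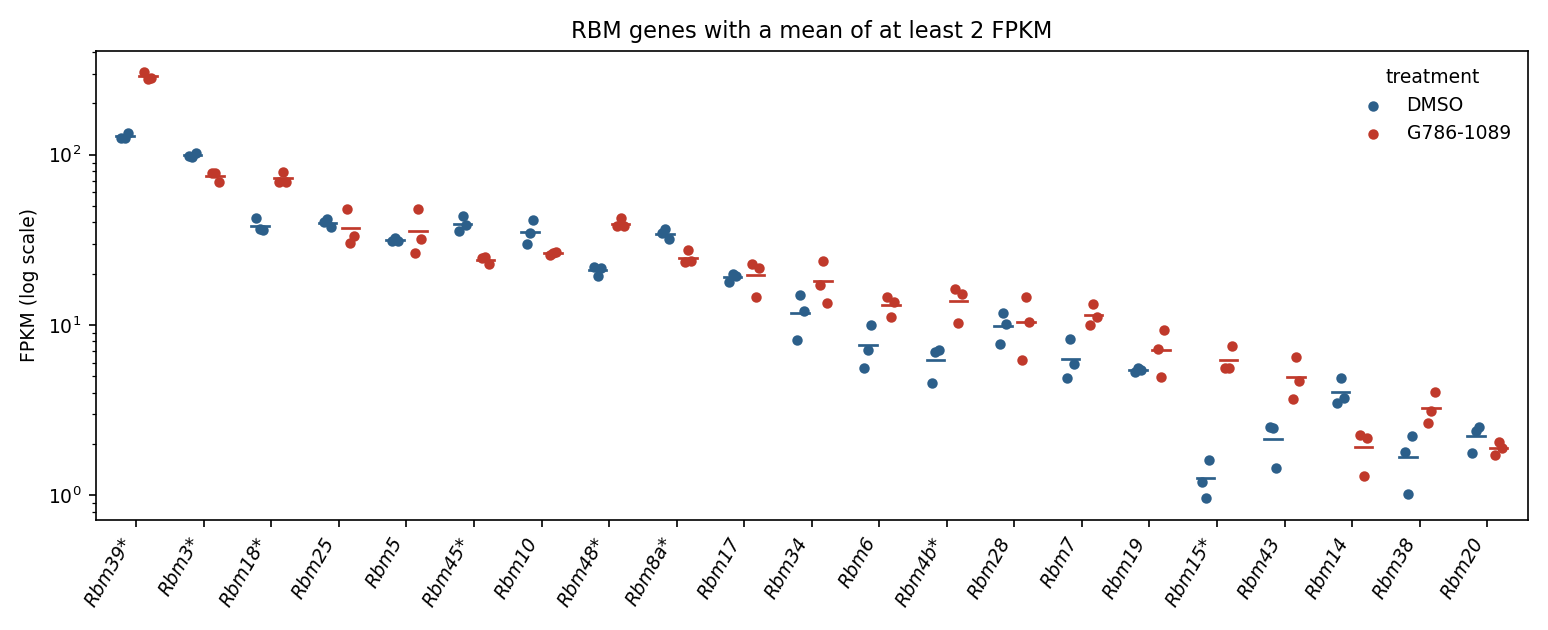
FPKM on a log scale of the RBM genes with a mean of at least 2 FPKM in the 6 libraries, ordered by mean level; points are libraries, short lines means of 3 libraries, and an asterisk marks edgeR calls. Rbm39 stands apart at 279 to 306 FPKM with G786-1089 (red) against 125 to 134 FPKM with DMSO (blue), and Rbm15 shows the widest gap among called genes.

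Which regulators of neuronal and endocrine splicing αTC1 cells express was read from 17 genes. Of these 9 were expressed: Celf4, Elavl3, Elavl4, Srrm3, Celf3, Elavl2, Ptbp2, Rbfox1 and Rbfox2, in the order of their mean level. Another 7 were low: Khdrbs2, Khdrbs3, Nova1, Celf6, Rbfox3, Celf5 and Nova2. Srrm4 was not detected. Over the 6 libraries the range of each of these genes overlapped with that of the next in the order, except for Srrm4 after Nova2. The median SE of their log2 fold changes was 0.50 against 0.18 for the hnRNP genes, so that changes of moderate size were less detectable in them.

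Srrm3 and Srrm4 encode the activators of microexons, the very short exons of neurons and endocrine cells. Srrm3 was at 3.18, 4.55 and 5.47 FPKM with G786-1089 and at 1.3, 2.41 and 1.46 FPKM with DMSO. Every treated library exceeded every DMSO library, and the log2 fold change was 1.36 (SE 0.36, edgeR adjusted p = 0.0489). This was the only call among the 16 tested genes of the group (6.25%, against 14.8% of all tested genes). It was lost in 5 of the 6 fits without 1 library, all but that without DMSO library B, with an adjusted p of up to 0.147. It was also lost with the replicate block (adjusted p = 0.0813) and with offsets for gene length (adjusted p = 0.0712). Srrm4 had 0 counts in all 6 libraries. Rest, the repressor of neuronal genes, was also listed at 0 in all 6 libraries.

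CELF proteins bind GU-rich RNA, and Celf3 to Celf6 are the neuronal group. Celf4 was at 6.81, 4.83 and 5.17 FPKM with G786-1089 and at 12.3, 10.1 and 7.65 FPKM with DMSO (log2 fold change -0.83, SE 0.24, edgeR adjusted p = 0.0663). Celf3 was at 1.61, 2.06 and 1.98 FPKM with G786-1089 and at 3.06, 5.31 and 3.77 FPKM with DMSO (log2 fold change -1.10, SE 0.31, edgeR adjusted p = 0.0632). Treatments did not overlap in either gene, and neither passed an adjusted p of 0.05, whereas Celf3 passed the study's combined threshold on p and fold. Celf6 was at 0.317 to 1.02 FPKM and Celf5 at 0 to 0.482 FPKM, with overlap. The widely expressed Celf1 and Celf2 were at 4.1 to 5.7 and 4.48 to 8.17 FPKM, with overlapping treatments as well.

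ELAVL proteins bind AU-rich RNA, and Elavl2, Elavl3 and Elavl4 are the neuronal ones. Elavl3 was at 5.19, 4.13 and 3.85 FPKM with G786-1089 and at 2.44, 4.2 and 3.65 FPKM with DMSO. Elavl4 was at 3.64, 3.34 and 3.15 FPKM with G786-1089 and at 3.62, 4.02 and 5.02 FPKM with DMSO. Elavl2 was at 2.33, 1.49 and 1.81 FPKM with G786-1089 and at 2.29, 2.63 and 2.29 FPKM with DMSO. The treatments overlapped in all 3 genes, with log2 fold changes of 0.36 (SE 0.25), -0.32 (SE 0.21) and -0.35 (SE 0.28), and also in the ubiquitous Elavl1 at 12.3 to 17.2 FPKM (-0.25, SE 0.12).

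RBFOX proteins bind UGCAUG and promote or repress exons by its position. Rbfox1 was at 2.45, 1.87 and 1.7 FPKM with G786-1089 and at 2.02, 0.994 and 1.53 FPKM with DMSO. Rbfox2 was at 1.02, 2.08 and 1.7 FPKM with G786-1089 and at 2.05, 0.597 and 1.79 FPKM with DMSO. Both met the limit for expression with G786-1089 only, since DMSO library B fell below 1 FPKM, but the treatments overlapped and neither gene was called (log2 fold change 0.41, SE 0.39, and 0.12, SE 0.51). Rbfox3, the neuronal nuclear antigen NeuN, was low at 0.00856 to 0.43 FPKM. Nova1 was at 0.104 to 0.977 FPKM and Nova2, at most 0.0704 FPKM, was the lowest of the genes detected in this group. Nova1 did not overlap between treatments (0.527, 0.371 and 0.104 FPKM with G786-1089, 0.977, 0.578 and 0.59 FPKM with DMSO) and was not called (log2 fold change -1.09, SE 0.65, edgeR adjusted p = 0.334).

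Ptbp1 was the abundant gene of its family, at 31.8, 41.2 and 35.8 FPKM with G786-1089 and 24.9, 29.9 and 25.6 FPKM with DMSO. Its treatments did not overlap, and its log2 fold change of 0.44 (SE 0.14) missed the threshold (edgeR adjusted p = 0.0801); 20.7% of its exon bases overlap antisense genes. The neuronal Ptbp2 was expressed with overlapping treatments at 1.07, 2.89 and 1.48 FPKM with G786-1089 and 1.54, 1.15 and 2.61 FPKM with DMSO (log2 fold change 0.04, SE 0.49). Ptbp3 was at 2.11 to 3.99 FPKM. Khdrbs2 and Khdrbs3, which encode the neuronal relatives of Sam68, were at 0.111 to 1.89 and 0.552 to 1.42 FPKM, below the 5.42 to 8.51 FPKM of Khdrbs1, which encodes Sam68 itself; none of the 3 was called.

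**Figure D4:**
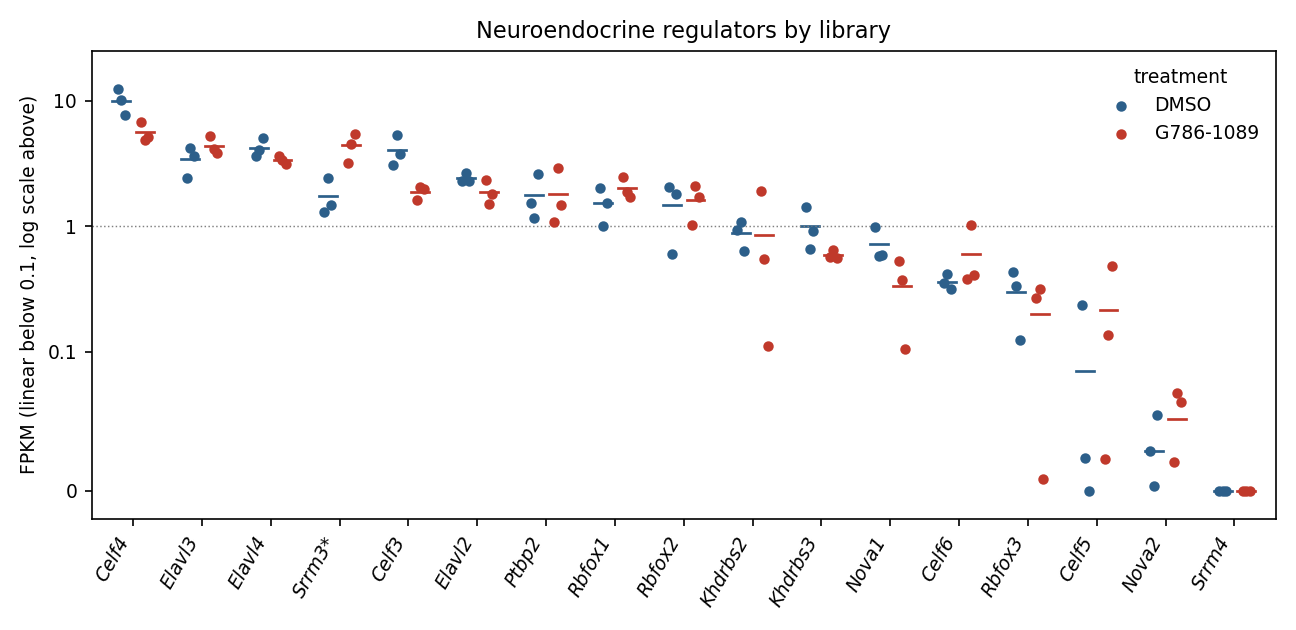
FPKM of the 17 neuroendocrine regulators in the 6 libraries (linear below 0.1 FPKM, log scale above), ordered by mean level; points are libraries, short lines means of 3 libraries, the dotted line the limit of 1 FPKM, and the asterisk an edgeR call. The 9 genes from Celf4 to Rbfox2 have all 3 points of at least 1 treatment on or above the line, and Srrm4 lies at 0.

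MBNL proteins oppose CELF proteins at many exons of muscle and brain. Mbnl2 was at 20.8, 14.3 and 13.1 FPKM with G786-1089 and at 23.9, 24 and 16.8 FPKM with DMSO, with overlap, and Mbnl3 had 0 counts. Mbnl1 was at 5.34, 6.08 and 4.92 FPKM with G786-1089 and at 3.51, 4.12 and 3.85 FPKM with DMSO, without overlap (log2 fold change 0.51, SE 0.17, edgeR adjusted p = 0.102). Of the TRA2 genes, whose proteins are SR-like activators, Tra2b was at 35.8 to 50 FPKM and Tra2a at 2.66 to 4.1 FPKM, both with overlapping treatments.

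The balance between paralogues was compared within libraries as the log2 ratio of their FPKM. With 3 libraries against 3, an exact two-sided permutation test cannot go below p = 0.1. Of 9 pairs with a value in every library, 3 reached this limit without overlap of the treatments, each with an exact permutation p of 0.1 and 0.3 after Benjamini-Hochberg adjustment over the 9. Mbnl2 over Mbnl1 was 1.53 ± 0.38 (SD, n = 3) with G786-1089 and 2.48 ± 0.33 with DMSO, a difference of -0.95. Celf3 over Celf1 was -1.31 ± 0.04 with G786-1089 and -0.35 ± 0.39 with DMSO, a difference of -0.96. Hnrnph2 over Hnrnph1 was -1.04 ± 0.26 with G786-1089 and -1.91 ± 0.07 with DMSO, a difference of 0.86. Ptbp2 over Ptbp1 stayed below 0 in every library, at -4.44 ± 0.55 with G786-1089 and -4.00 ± 0.70 with DMSO, and the treatments overlapped. The other 5 pairs, Tra2a over Tra2b, Hnrnpll over Hnrnpl, Elavl4 over Elavl1, Nova1 over Nova2 and Rbfox1 over Rbfox2, overlapped too, and no value was given for Srrm3 over Srrm4.

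**Figure D5:**
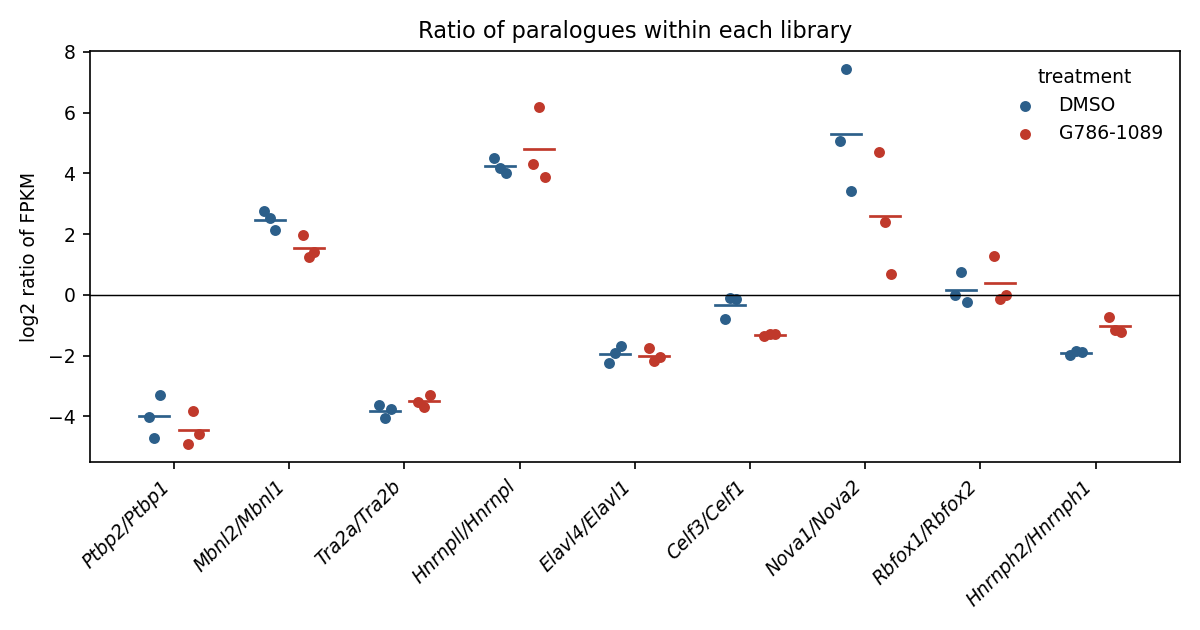
Log2 ratio of the FPKM of 9 paralogue pairs within each library; points are libraries, short lines means of 3 libraries, and 0 marks equal levels. Mbnl2/Mbnl1, Celf3/Celf1 and Hnrnph2/Hnrnph1 are the pairs whose G786-1089 (red) and DMSO (blue) points do not overlap.

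Splicing and RNA-binding regulators that carry other names were read from a list of 44 genes, of which 27 were expressed and 35 tested. Of these 35, 5 fell and 1 rose, against 7.8% and 6.98% of all tested genes. Pcbp1, an hnRNP E protein, fell from 64, 58.7 and 68.6 FPKM with DMSO to 38.2, 38.6 and 42.9 FPKM with G786-1089 (log2 fold change -0.67, SE 0.11, edgeR adjusted p = 0.0106). Its relative Pcbp4 also fell (-0.90, SE 0.23, edgeR adjusted p = 0.045). Nono, a paraspeckle protein and the most abundant gene of the list, fell from 277, 298 and 256 FPKM to 203, 213 and 190 FPKM (log2 fold change -0.45, SE 0.08, edgeR adjusted p = 0.0126). Cirbp, a cold-inducible protein like Rbm3, was at 118, 131 and 105 FPKM with DMSO and at 74.4, 44.6 and 59.3 FPKM with G786-1089 (log2 fold change -0.99, SE 0.20, edgeR adjusted p = 0.0215). Rbpms fell (-1.34, SE 0.24, edgeR adjusted p = 0.0125) and Rbms1, whose protein binds single-stranded nucleic acid, rose (1.56, SE 0.38, edgeR adjusted p = 0.039). Treatments overlapped in none of these 6 genes. Single libraries decided many of these calls. That of Rbms1 was lost in all 6 fits without 1 library (adjusted p up to 0.111), that of Pcbp4 in 5 (up to 0.127), that of Cirbp in 3, that of Rbpms in 2 and that of Nono in 1. Library size alone ended the calls of Nono (adjusted p = 0.0811) and Pcbp4, length offsets those of Rbms1 (0.0608), Pcbp4 (0.0685) and Cirbp (0.0507), and the replicate block those of Rbms1 (0.059), Pcbp4 (0.0716), Cirbp (0.0584) and Rbpms (0.0584). Without DMSO library A only 1 of the list was called, and without DMSO library B only 2. Rbmx, Raly and Syncrip, which encode hnRNP proteins under other names, had overlapping treatments, with log2 fold changes of -0.28 (SE 0.28), -0.10 (SE 0.10) and 0.00 (SE 0.44).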

How the data were processed

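Smart-seq2 libraries, which do not keep the strand, were sequenced in pairs. The authors aligned reads to GRCm38 with STAR 2.7.9a, per the labels, and counted them over Ensembl transcripts. The deposited counts are whole numbers without normalization; the authors also deposited FPKM, used here for levels. Even numbers made up 78.1% of the counts from 1 to 10, so mates of a pair may be counted separately, and floors cover counting error only. The main test was run with edgeR 4.0.16 under R 4.3.3: filterByExpr (minimum count 10, minimum total 15), TMM, quasi-likelihood test and Benjamini-Hochberg adjustment over all tested genes. SE is the absolute log2 fold change over the square root of F. Fits were tested on simulated data. Exon overlaps and copies (blastn 2.17.0, at least 300 bases, 95% identity) came from GENCODE vM21, in which all 87 genes have the coordinates of the files. RefSeq windows matched 71 of the 87 genes; the shown ones end at the start of transcription, and for the 3 genes on chromosome 18 and further genes none was used.

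The members and lists were chosen with earlier results of these data known. Named genes are the neuroendocrine regulators, members and listed regulators with an adjusted p under 0.05, the most abundant member of each family, paralogue pairs, Smndc1, and up to 5 members past a log2 fold change of 1 without a call. A few others (Hnrnpc, Hnrnpdl, Rbm5, Rbm6, Rbm10, Rbm41, Rbmx, Raly, Syncrip and the remaining members given by range) were named after their values were seen. Alternatives were DESeq2 1.42.0, limma 3.58.1 on log2 FPKM, other scalings and filters, length offsets, a replicate block, glmTreat and each library left out.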

Additional observations from a re-analysis of the deposited data

How the results depend on the processing

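Of the 17 members called, 10 (Hnrnpa1, Hnrnpa2b1, Hnrnpab, Hnrnph1, Hnrnpk, Hnrnpm, Rbm15, Rbm18, Rbm39 and Rbm48) were called in all 16 alternatives other than glmTreat, and 7 were lost in some. DESeq2 called 30 of 80 members, 3 neuroendocrine regulators, 10 of the other regulators and 4276 of 22828 genes. These were 37.5% of the members and 18.7% of all genes it tested, against 21.5% and 14.8% in the main test. glmTreat against an absolute log2 fold change of 0.5 called 9 members. A minimum of 1 count in any library left 0 neuroendocrine regulators, and a minimum of 10 counts in every library left 2. In the main edgeR test 3 of these 16 had an unadjusted p under 0.05, against 4238 of all 15082 tested genes. Limma on log2(FPKM + 1) and on log2(FPKM + 0.1) each called 3 neuroendocrine regulators, and with the former 7 members passed the study's combined threshold. Library size alone moved the median log2 fold change of the members to 0.11, with that of all genes at 0.25. Length offsets left 3 of the other regulators. Leaving out 1 library gave 10 to 13 members, 6 to 10 at the combined threshold, 0 to 1 neuroendocrine regulators, 1 to 4 other regulators and 1253 to 1556 of all genes; fewer samples entered these fits. For the rest the cause was not tested.

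The letters of the columns could not be tied to the replicate numbers of the labels, and columns of 1 letter did not deviate together (correlations 0.00, 0.00 and 0.02); whether a letter stands for 1 batch of cells is not known. With the letter as a replicate block, 11 members (4 higher, 7 lower), 0 neuroendocrine regulators, 3 other regulators and 1232 of all genes were called, and 7 members passed the combined threshold. With length offsets and the replicate block together these were 13 members, 0, 1, 839 and 6. Low counts limit the genes under about 1 FPKM, where SEs of 0.50 and more were common.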
